A study of Caenorhabditis elegans with 21 samples.

Results

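Antisense small RNAs that were abundant in oocytes and scarce in sperm came from 1174 loci of Caenorhabditis elegans, of 21222 distinct loci in the deposited table of reads over exons. The loci were chosen by their small RNA levels in oocytes and sperm alone. A locus was kept if its antisense reads, scaled to a column sum of 1000000, reached 10 in oocytes and at least 8 times the sperm value, with sperm values below 1 taken as 1. They made up 5.532% of the loci. Their high oocyte and low sperm levels are therefore the selection itself and are given as description without a test.

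Much of the antisense small RNA of the worm is made by RNA-dependent RNA polymerases, which copy a target messenger RNA into short RNAs that Argonaute proteins bind. Such RNAs can silence their targets or, when bound by the Argonaute CSR-1, mark genes expressed in the germ line. A smaller primary class, made with Dicer and bound by ERGO-1 in oocytes and embryos, is known to start the production of secondary antisense RNAs on a limited set of duplicated and poorly conserved genes. The tables hold no read lengths, so these classes could not be separated here.

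The study followed what sperm and oocyte contribute to the 1-cell embryo. It holds 21 labelled samples, 15 of mRNA and 6 of small RNA, all from worms grown at 24 °C. The 6 small RNA libraries came from oocytes of the reference strain N2, sperm of fog-2(q71) males, hybrid 1-cell embryos, 1-cell embryos of TX189(OMA-1::GFP), and whole worms of the maternal strain and of CB4856. The hybrid embryos had fem-1(hc17ts)/TX189(OMA-1::GFP) mothers and CB4856 fathers, the Hawaiian wild strain. The title of the maternal-strain worm library reads N2 whole worm, but its strain is given as fem-1(hc17ts)/TX189(OMA-1::GFP), which is the genotype used here. Worms carrying fem-1(hc17ts) make no functional sperm of their own at the restrictive temperature, and fog-2(q71) leaves hermaphrodites without sperm. TX189 carries OMA-1 fused to green fluorescent protein, whose reads cannot be told from those of oma-1 itself.

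Messenger RNA was measured in 3 libraries each of hybrid embryos prepared by poly(A) selection, hybrid embryos depleted of ribosomal RNA with RiboMinus, CB4856 worms and maternal-strain worms. Sperm mRNA came in single libraries: a low purity and a pronase-treated high purity preparation from CB4856, and 1 from fog-2. Small RNA was treated with a 5′ polyphosphatase, which lets RNAs with a 5′ triphosphate enter the library. Each small RNA group is 1 library, so differences between these libraries have no replicate check and are given without a p-value.

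The 6 small RNA libraries held 0.5085 to 12.48 M antisense exon reads (M, 1000000). The sum of 30 major sperm protein genes was 38794 to 114704 RPKM (reads per kilobase of gene and per 1000000 reads) in the 3 sperm mRNA libraries and 0.726 to 7.86 in the 1-cell embryos. A list of oocyte and early embryo genes still summed to 1899 to 2881 RPKM in the sperm libraries, against 20612 to 26092 in the embryos. Intestine genes summed to 888 to 3386 RPKM in the sperm libraries, muscle genes to 1173 to 1751 and cuticle genes to 1570 to 3937. The sperm libraries thus held the major sperm protein messages together with messages of genes on the oocyte and early embryo, intestine, muscle and cuticle lists. The sums do not show which cells these messages came from. Between replicates 1 and 2 of each mRNA group, the variance was 0.96 to 1.06 times the counting noise of read pairs, and 1.92 to 2.13 times that of single reads. Between replicates 1 and 3 it was 17.48 to 668.75 times the noise of read pairs. The first 2 replicates thus differed by no more than the sampling noise if pairs are the units counted, which the labels do not say. Replicates 1 and 2 were therefore counted as 1 sample, which leaves 2 samples a group.

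In the following, levels are in RPM, reads per 1000000 antisense exon reads, with each locus counted once, because 5 identifiers stand 16 to 256 times in the table. On that scale the selection starts at 13.25 RPM and at a 9.691-fold excess. Of the values, 89.8 to 92.5% were whole reads and the rest held fractions, as arise where a read is split between several mapping places, so values of single genes in repeated families such as F-box, BTB and histone genes are uncertain. A floor of 3 reads corresponded to 0.4513 RPM in oocytes, 0.4174 in sperm, 1.005 in hybrid embryos, 0.2404 in TX189 embryos, 4.464 in maternal-strain worms and 5.899 in CB4856 worms. Intervals and floors cover counting error only.

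The 1174 loci carried 20.38% of all antisense exon reads in oocytes (95% Wilson interval 20.35 to 20.41%) and 0.7347% in sperm (0.7285 to 0.741%). In the libraries that the selection did not use, they carried 24.0% in hybrid embryos, 10.11% in TX189 embryos, 20.9% in maternal-strain worms and 11.81% in CB4856 worms. The share in the 2 embryo libraries thus differed by more than counting error, with the hybrid embryos closer to oocytes. Few loci carried much of some shares. In maternal-strain worms 39 loci held 144268 of the members' 209004 RPM, and in hybrid embryos 31 loci held 90763 of 240037. A median member stood at 47.27 RPM in oocytes, 1.809 in sperm, 36.85 in hybrid embryos, 18.59 in TX189 embryos, 14.88 in maternal-strain worms and 11.8 in CB4856 worms. By comparison, the median over all 6222 loci that passed the same oocyte level was 47.68, 17.95, 52.59, 44.48, 46.12 and 41.29 RPM in the same order. The worm medians rest on few reads, 10 per locus in maternal-strain worms and 6 in CB4856 worms, against 314.2 in oocytes and 110 in hybrid embryos.

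**Figure D1:**
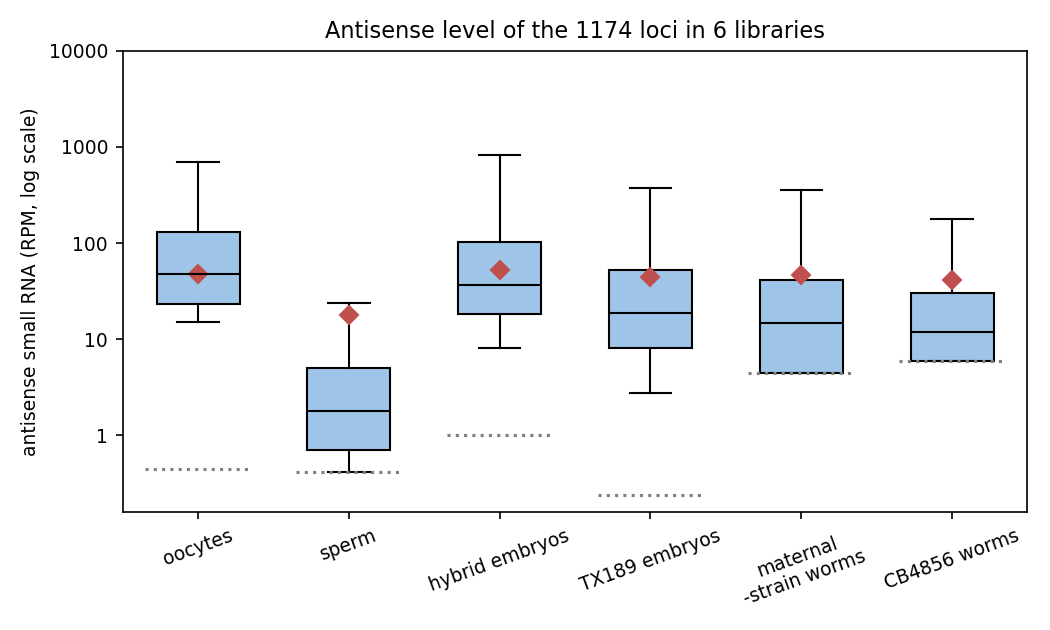
Antisense small RNA level of the 1174 loci in each of the 6 libraries, in RPM on a log axis. Boxes span the quartiles with the median as a line, whiskers the 5th to 95th percentile, the dotted line is the floor of 3 reads with lower values drawn on it, and the red diamond is the median of all 6222 loci at the same oocyte level. The median was 36.85 RPM in hybrid embryos and 18.59 in TX189 embryos, while the diamonds lie at 52.59 and 44.48.

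In the box plot of levels by library, the median of the loci lay above its sperm value, which the selection kept low, in each other library. Single loci did not all follow it, as nlp-40 had 10.16 RPM in sperm against 6.7 in hybrid embryos. In sperm 74 of them had no read and 244 lay under the floor. In hybrid embryos 1 locus had no read, in TX189 embryos 8, in maternal-strain worms 72 and in CB4856 worms 142. The worm floors are about as high as the lower quartiles of the loci there, 4.464 and 3.933 RPM, so 324 and 446 loci lay under the floor in these libraries. For these the depth does not show whether the small RNA was present.

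Compared with oocytes, the median locus had 0.7064 times the level in hybrid embryos and 0.3616 times in TX189 embryos. It had 0.2018 times the level in maternal-strain worms and 0.1612 times in CB4856 worms. For the 5048 other loci at the same oocyte level these ratios were 1.144, 0.9578, 1.108 and 1.006. The selection favours high oocyte values, so the lower ratios of its members are a description. In hybrid embryos 354 of the 1174 loci (30.15%) were at or above their oocyte level, against 62.34% of the other loci. In TX189 embryos 134 (11.41%) were, against 47.74%. In hybrid embryos 7 loci (0.5963%) were 8-fold or more below oocytes, against 10.14% of the loci in TX189 embryos. Among the loci that the worm depth could show as 8-fold lower, 298 of 688 were so in maternal-strain worms and 332 of 587 in CB4856 worms. The 8-fold lower counts were not made for the other loci, and the selection for high oocyte values raises them.

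**Figure D2:**
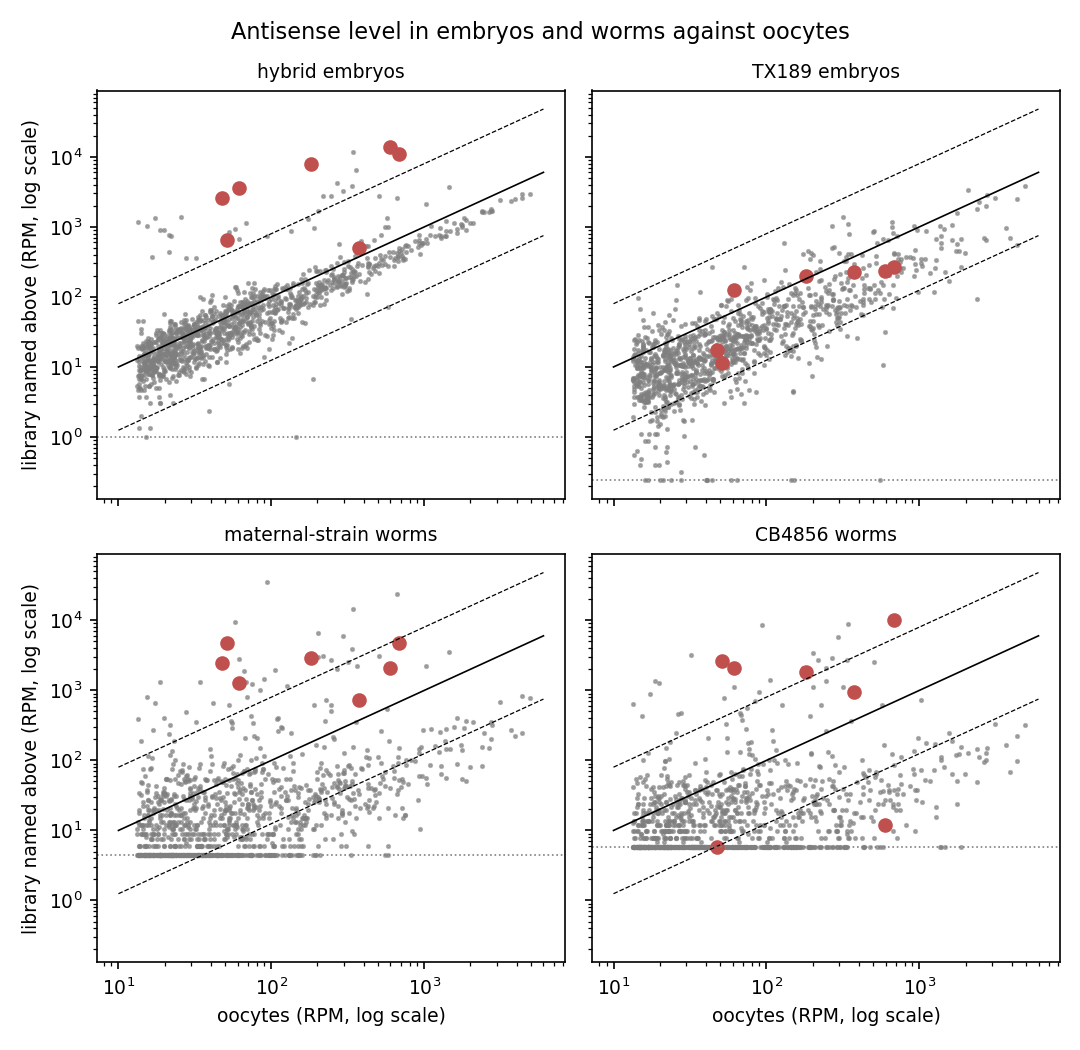
Antisense level of each of the 1174 loci in oocytes (x axis) against hybrid embryos, TX189 embryos, maternal-strain worms and CB4856 worms (y axis), in RPM on log axes. The solid line marks equal levels, dashed lines 8-fold differences, the dotted line the floor of 3 reads with lower values drawn on it, and red points 7 listed targets of the ERGO-1 pathway. In hybrid embryos most points follow a line near the equal level and 31 lie 8-fold or more above it. In TX189 embryos none does, and 10.14% lie 8-fold or more below.

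The scatter against oocytes shows how uniform the hybrid embryo levels were. From the 5th to the 95th percentile the ratio of hybrid embryos to oocytes ran from 0.3119 to 1.983, and that of TX189 embryos from 0.07791 to 1.444. Between the embryo libraries 106 loci were 8-fold or more higher in the hybrid embryos, of which 21 carry no gene name. The reverse held for 6, namely R13H4.2, fbxc-18, Y48B6A.10, droe-4, rgs-10 and nlp-40. The other loci were not compared between the embryo libraries, so the 2 counts show no trait particular to the members. Both libraries come from embryos with a TX189 mother or TX189 parents, and they differ in the father, in the fem-1 allele and in depth. Which of these goes with the difference cannot be told apart with 1 library each.

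Among the loci with the highest oocyte level, K08B4.5 led with 4875 RPM (95% interval 4822 to 4928). It had 158.6 RPM in sperm, 2977 in hybrid embryos, 3875 in TX189 embryos, 778.2 in maternal-strain worms and 322.5 in CB4856 worms. Its level thus stayed high in both embryo libraries and was 6.264-fold and 15.12-fold lower than oocytes in the worm libraries. unc-10, which encodes the RIM protein of the presynaptic active zone, had 2636 RPM in oocytes and 26.16 in sperm. It had 1610 RPM in hybrid embryos, 701.2 in TX189 embryos, 150.3 in maternal-strain worms and 96.35 in CB4856 worms. sdz-26, named as a zygotic transcript that depends on the maternal factor SKN-1, had 2732 RPM in oocytes and 239.2 in sperm, the highest sperm level of any of the 1174 loci. It had 1774 RPM in hybrid embryos, 2000 in TX189 embryos, 202.3 in maternal-strain worms and 100.3 in CB4856 worms.

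Y110A2AL.1 had 3935 RPM in oocytes, 36.18 in sperm, 2518 in hybrid embryos, 700.5 in TX189 embryos, 220.2 in maternal-strain worms and 68.83 in CB4856 worms. F46F2.4 had 2765 RPM in oocytes, 70.4 in sperm, 1694 in hybrid embryos, 2807 in TX189 embryos, 324.4 in maternal-strain worms and 151.4 in CB4856 worms. W03H9.2 had 2393 RPM in oocytes, 187 in sperm, 1654 in hybrid embryos, 94.09 in TX189 embryos, 81.83 in maternal-strain worms and 49.16 in CB4856 worms. The ratio of hybrid embryos to oocytes was alike for these 3, between 0.6126 and 0.6911. TX189 embryos separated them, with W03H9.2 25.43-fold below oocytes and F46F2.4 at the oocyte level. The other 6 of the 12 highest loci, C44C10.5, F22H10.4 and 4 without a gene name, ranged from 2454 to 4327 RPM in oocytes.

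Most of these 12 loci had little mRNA in embryos and worms. K08B4.5 had 0.0031 RPKM in poly(A) embryos and 0.044 in maternal-strain worms, means of 2 samples. unc-10 had 0.0639 RPKM in poly(A) embryos, 1.352 in maternal-strain worms and 1.435 in CB4856 worms. The highest poly(A) embryo mean among the 12 was 1.981 RPKM, of Y110A2AL.1.

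The ratio to sperm, a value that the selection used, was among the largest for ekl-5 and F54E4.2, whose sperm reads were under the floor, so their order is not determined. ekl-5, first named in screens for genes that enhance loss of Ras pathway function, had 577.3 RPM in oocytes, 0.1391 in sperm (1 read), 988.2 in hybrid embryos, 10.82 in TX189 embryos, 5.952 in maternal-strain worms (4 reads) and 1.966 in CB4856 worms (1 read). F54E4.2 had 550.1 RPM in oocytes, none in sperm, 982.9 in hybrid embryos, 0.08014 in TX189 embryos (1 read), none in maternal-strain worms and 1.966 in CB4856 worms (1 read). Both were thus high in oocytes and hybrid embryos and lower in each of the other 4 libraries, F54E4.2 under the floor in all 4 and ekl-5 well above it in TX189 embryos (135 reads). For the 0 reads of F54E4.2, the floor of 3 reads is 0.4174 RPM in sperm and 4.464 in maternal-strain worms, and the upper ends of the 95% Wilson intervals are 0.5345 and 5.716 RPM.

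athp-3, named for its AT hook and PHD finger domains, had 434.8 RPM in oocytes, 1.391 in sperm, 230 in hybrid embryos and 148.9 in TX189 embryos. rgs-9, a regulator of G-protein signalling, had 322.5 RPM in oocytes, 1.252 in sperm, 124.6 in hybrid embryos and 134.1 in TX189 embryos. nhr-58, a nuclear hormone receptor, had 303.6 RPM in oocytes, 1.113 in sperm, 145.4 in hybrid embryos and 34.78 in TX189 embryos. Unlike ekl-5 and F54E4.2, these 3 lay below their oocyte level in hybrid embryos. In the worm libraries all 3 were between 1.966 and 18.6 RPM, on 1 to 12.5 reads. In CB4856 worms athp-3 (2 reads) and rgs-9 (1 read) lay under the floor of 5.899 RPM.

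A group of 31 loci stood apart in the scatter: they were 8-fold or more above oocytes in hybrid embryos. They made up 2.641% of the members, against 0.3566% of the other loci at the same oocyte level. In maternal-strain worms 39 members (3.322%) and in CB4856 worms 28 (2.385%) were so, no larger a share than the 3.704% and 3.764% of the other loci. The median of the 31 was 58.2 RPM in oocytes, 1.95 in sperm, 1162 in hybrid embryos, 36.5 in TX189 embryos, 1320 in maternal-strain worms and 1104 in CB4856 worms. Their summed level was 4462 RPM in oocytes, 90763 in hybrid embryos and 2520 in TX189 embryos. These loci were picked by the ratio of hybrid embryos to oocytes, so neither of these 2 levels is a result. Their TX189 and worm levels were not used to pick them. The TX189 median was low against the hybrid embryos but above the 18.59 RPM of all members. Among the most extreme, F55C9.5 had 17.45 RPM in oocytes, 0.2783 in sperm, 1318 in hybrid embryos, 11.94 in TX189 embryos, 650.2 in maternal-strain worms and 886.8 in CB4856 worms. Of the 31, 21 were also 8-fold or more above oocytes in maternal-strain worms, 21 in CB4856 worms, 17 in both and 0 in TX189 embryos. Those 21 are 67.74% of the 31 and 53.85% of the 39 loci that passed that excess in maternal-strain worms. In TX189 embryos no member at all passed it, against 0.6141% of the other loci. All these counts divide by the oocyte level, which was also used to pick the 31. No gene name is given for 13 of the 31. Their mRNA was low, with a median of 0.296 RPKM in poly(A) embryos, 0.288 in maternal-strain worms and 0.675 in CB4856 worms.

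The ERGO-1 pathway list, 10 genes known as targets of its primary small RNAs, had 7 members among the 1174 loci. Of all loci 5.532% were members, and of those that reached the oocyte level 18.87% were. The whole list summed to 2321 RPM in oocytes, 168.6 in sperm, 41041 in hybrid embryos, 1360 in TX189 embryos, 24724 in maternal-strain worms and 20851 in CB4856 worms. The sums of hybrid embryos and both kinds of worms were high, and that of TX189 embryos lay below the oocyte sum. E01G4.5, a locus known to give abundant small RNAs in embryos, had 592.1 RPM in oocytes, 58.44 in sperm, 13998 in hybrid embryos, 233.2 in TX189 embryos, 2096 in maternal-strain worms and 11.8 in CB4856 worms. fbxb-37, an F-box gene, had 682.9 RPM in oocytes, 19.06 in sperm, 11092 in hybrid embryos, 269.4 in TX189 embryos, 4813 in maternal-strain worms and 10080 in CB4856 worms. The CB4856 worms therefore separated these 2, E01G4.5 standing at 6 reads there and fbxb-37 at 5126.

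F39E9.7 had 181.9 RPM in oocytes, 12.94 in sperm, 7997 in hybrid embryos, 201 in TX189 embryos, 2874 in maternal-strain worms and 1838 in CB4856 worms. C40A11.10 had 47.76 RPM in oocytes, 1.531 in sperm, 2552 in hybrid embryos, 17.35 in TX189 embryos, 2421 in maternal-strain worms and 1.966 in CB4856 worms (1 read). K02E2.6 had 51.44 RPM in oocytes, 0.8348 in sperm, 638.5 in hybrid embryos, 11.3 in TX189 embryos, 4776 in maternal-strain worms and 2635 in CB4856 worms. K02E2.6 alone of the 7 was higher in both worm libraries than in hybrid embryos by more than 4-fold. F55C9.3 had 3565 RPM in hybrid embryos against 61.52 in oocytes and 126.6 in TX189 embryos. W05H12.2 differed least between these libraries, with 371.9 RPM in oocytes, 494.6 in hybrid embryos and 229.3 in TX189 embryos. The 3 listed genes outside the selection were C44B11.6 and H16D19.4, whose oocyte level was 2.654 and 6.576 times that of sperm, and W04B5.1, which had 2.557 RPM in oocytes.

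**Figure D3:**
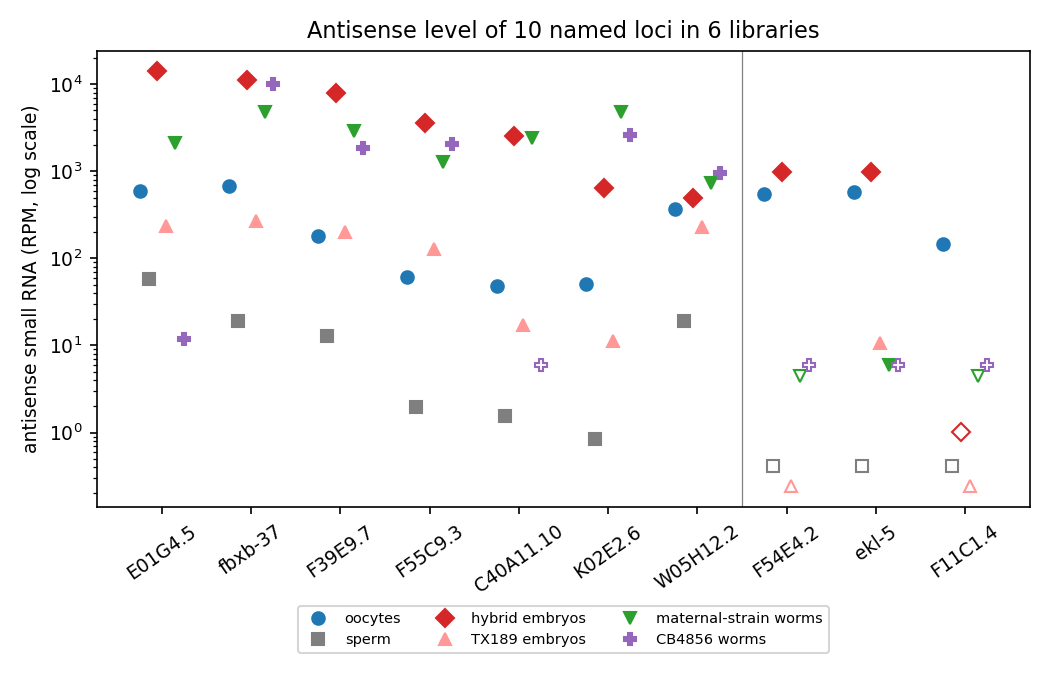
Antisense level of 10 loci in the 6 small RNA libraries, in RPM on a log axis, with 1 symbol a library. The 7 loci left of the vertical line are listed ERGO-1 targets, and open symbols, drawn at the floor of 3 reads, stand for values at or under it. E01G4.5 reaches 13998 RPM in hybrid embryos and 11.8 in CB4856 worms, and F54E4.2 and ekl-5 are higher in oocytes and hybrid embryos than in the other 4 libraries.

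At the other end of the plot of 10 named loci, F11C1.4 had 145 RPM in oocytes (964 reads), none in sperm or in hybrid embryos, 0.08014 in TX189 embryos (1 read), none in maternal-strain worms and 1.966 in CB4856 worms (1 read). In hybrid embryos the floor of 3 reads is 1.005 RPM, and the upper end of the 95% Wilson interval for its 0 reads is 1.287 RPM. nlp-40, a neuropeptide-like gene of the intestine, had 186.1 RPM in oocytes, 10.16 in sperm, 6.7 in hybrid embryos and 133.4 in TX189 embryos. scav-4, of the scavenger receptor family, had 39.03 RPM in oocytes, none in sperm, 2.345 in hybrid embryos and 0.561 in TX189 embryos. F11C1.4 and scav-4 were low in both embryo libraries, nlp-40 in the hybrid embryos only.

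Between the worm libraries, 16 of the 1174 loci were 8-fold or more higher in the maternal strain than in CB4856, and 7 the reverse, while 262 lay under the floor in both. The other loci were not counted in this way, so these counts show no trait particular to the members. C40A11.10 and E01G4.5 were among the 16. F49F1.5 had 58.21 RPM in oocytes, 916.9 in hybrid embryos, none in TX189 embryos, 9354 in maternal-strain worms and 25.56 in CB4856 worms. F31A9.2 had 34 RPM in oocytes, 99.16 in hybrid embryos, 1324 in maternal-strain worms and none in CB4856 worms. The highest worm level of any of the loci was that of T05E12.8, with 35415 RPM in maternal-strain worms and 8591 in CB4856 worms, against 93.11 in oocytes, 751.4 in hybrid embryos and 80.54 in TX189 embryos.

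Gene families differed in the share of their loci that were members. Against 5.532% of all loci, 26 of 107 fbxb genes (24.3%), 8 of 37 fbxc genes (21.62%) and 6 of 21 btb genes (28.57%) were members. F-box and BTB proteins are known as adaptors that bring substrates to ubiquitin ligases. The fbxa genes gave 14 of 185 (7.568%), bath genes, with BTB and MATH domains, 4 of 35 (11.43%), and nuclear hormone receptors 18 of 272 (6.618%). Seven-transmembrane receptor genes gave 4 of 1056 (0.3788%), and collagens 0 of 153. These shares also reflect how many loci of a family reached the oocyte level at all. Of all loci that did, 18.87% were members, against 26 of 33 fbxb, 8 of 14 fbxc, 6 of 7 btb, 14 of 46 fbxa, 4 of 23 bath and 18 of 37 nuclear hormone receptor genes. Of the receptor genes 12 reached it and 4 were members, and of the collagens 10 and 0. The median fbxb member had 45.7 RPM in oocytes, 0.835 in sperm, 30.5 in hybrid embryos and 21.1 in TX189 embryos, and 5.95 and 1.97 in maternal-strain and CB4856 worms. The 48 fbxa, fbxb and fbxc members had a median mRNA level of 0.288 RPKM in poly(A) embryos. Counts for these families rest partly on reads shared between copies.

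**Figure D4:**
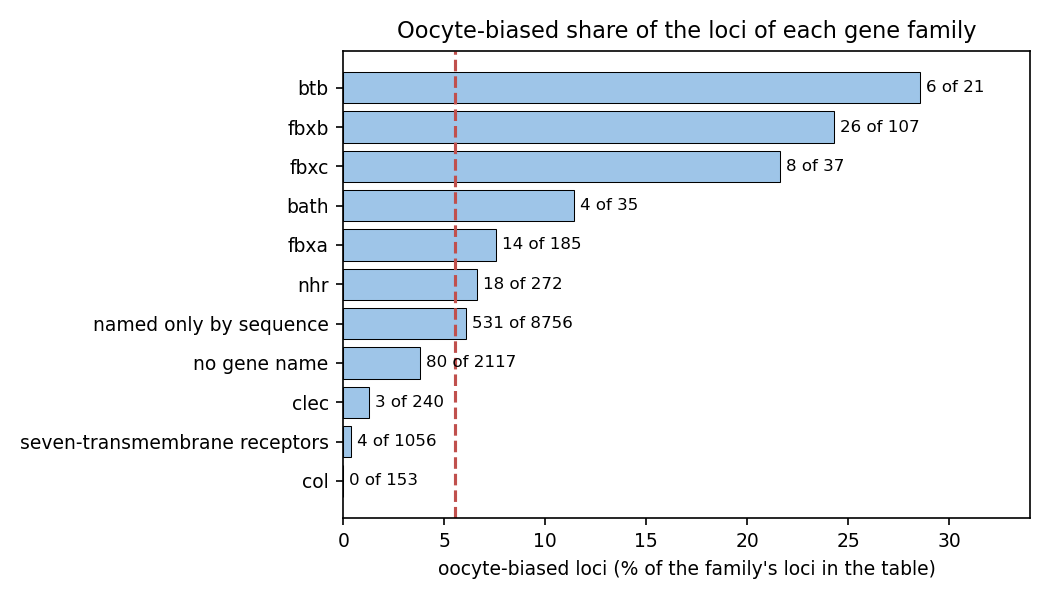
Percent of the loci in each gene family that met the selection, with 1 bar a family and the number of members and loci beside it. The dashed line is the 5.532% of all loci. The btb, fbxb and fbxc families lie at 28.57%, 24.3% and 21.62%, collagen genes at 0.

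Members also stood beside each other. Of the 1079 members placed in the RefSeq gene order, 231 (21.41%) had another member as a direct neighbour, against 10.4% of the other loci. Neighbours can share copies of one gene and an antisense read can belong to either of 2 overlapping genes, and neither was separated here. Runs of 3 or more members numbered 15. The longest held 6, fbxb-21, fbxb-20, fbxb-16, fbxb-15, btb-13 and btb-12, with a median of 103.2 RPM in oocytes, 1.113 in sperm, 49.75 in hybrid embryos and 15.83 in TX189 embryos. A run of 4 joined fkh-4, a forkhead factor, jmjd-3.3, a jumonji gene, set-8, a SET domain gene, and F02D10.6.

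Of the small RNA pathway lists, 2 of 16 Argonautes and 3 of 13 mutator and amplification genes were among the loci. None was of 5 RNA-dependent RNA polymerase genes and partners, 5 genes of primary class production, 7 granule genes and 3 nuclear genes. Of all loci 5.532% were members, and of those that reached the oocyte level 18.87% were. The lists are too short to show a difference from these shares. Some listed genes had more antisense reads in sperm, such as prg-1, the piRNA Argonaute, with 1616 RPM in sperm against 398.8 in oocytes, and glh-1, a germ granule helicase, with 1570 against 227.9. Among the 5 members, ergo-1, the Argonaute of the oocyte and embryo primary class, had 73.26 RPM in oocytes, 7.235 in sperm, 98.49 in hybrid embryos, 45.68 in TX189 embryos, 102.7 in maternal-strain worms and 27.53 in CB4856 worms. nrde-3, the Argonaute that carries secondary small RNAs into somatic nuclei, had 23.77 RPM in oocytes, 1.113 in sperm, 30.82 in hybrid embryos and 12.9 in TX189 embryos. mut-14 and smut-1, a pair of helicases of the amplification machinery, had 77.17 and 77.32 RPM in oocytes, 6.4 and 2.5 in sperm, 104.2 and 90.11 in hybrid embryos, and 25.16 and 27.33 in TX189 embryos. nyn-2, a nuclease of the same machinery, had 99.73 RPM in oocytes, 7.93 in sperm, 94.8 in hybrid embryos and 34.94 in TX189 embryos. In all 5 the hybrid embryos lay near the oocyte level and TX189 embryos lower.

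Of 22 oocyte and early embryo genes listed, 3 were members, against 18.87% of all loci that reached the oocyte level. glp-1, the Notch receptor that keeps germline stem cells dividing, had 206.7 RPM in oocytes, 14.33 in sperm, 230.8 in hybrid embryos and 67.32 in TX189 embryos. puf-11, of the PUF family of RNA-binding proteins, had 74.01 RPM in oocytes, 6.26 in sperm, 79.06 in hybrid embryos, 91.68 in TX189 embryos and 434.5 in maternal-strain worms. rme-2, the yolk receptor of oocytes, had 191.2 RPM in oocytes, 11.27 in sperm, 965.4 in hybrid embryos and 351.1 in TX189 embryos. None of 30 major sperm protein genes and 14 other sperm genes was a member. The 30 summed to 0.7521 RPM in oocytes, with 27 at 0, so none could reach the oocyte level. The other sperm genes had a median of 0.2256 RPM in oocytes. None of 10 intestine, 6 muscle, 5 cuticle and 5 neuron genes was a member either, lists too short to show a difference from the 5.532% of all loci.

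Just inside the selection by fold were mrps-2, cec-8, mdt-4, nhr-11 and eif-2Bgamma, at 8.007 to 8.032 times sperm, and just outside W07E11.1, Y56A3A.31, F54D5.2, T07A9.1 and sinh-1, at 7.884 to 7.98. By level, mak-2, C06H5.8 and mrpl-24 were the nearest inside, at 10.05. Among the nearest outside were nuaf-1, npr-4, Y34B4A.7, mrpl-51 and sgnh-1, all at 9.991.

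Sense reads are given per 100 antisense reads, whose level the selection set high in oocytes and low in sperm, so nothing is read from the ratios in these 2 libraries. They were 0.8091 for the members and 3.194 for all loci in oocytes, and 13.74 and 4.801 in sperm. In TX189 embryos the values were 3.871 and 6.006, in maternal-strain worms 11.92 and 23.73, and in CB4856 worms 19.56 and 34.59. The 10.55 in hybrid embryos came mostly from 1 locus, F40G9.6, which gave 59.08% of the members' sense reads there, and without it the value was 4.317. Over introns the members had 1.142 antisense reads per 100 exon antisense reads in hybrid embryos, 2.106 in TX189 embryos, 13.46 in maternal-strain worms and 24.53 in CB4856 worms. All loci had 10.75, 2.648, 106.5 and 192.8 in the same order. In oocytes and sperm, where the selection again set the divisor, the members had 1.56 and 13.84 and all loci 3.278 and 3.815.

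At the median, the mRNA level of these loci was below that of the other loci with the same oocyte antisense level. In poly(A) embryos the median over the 1169 loci in the mRNA table was 7.5 RPKM, against 31.1 for the other 5047 loci with the same oocyte antisense level and 0.176 for all 21035 genes. In RiboMinus embryos it was 6.36 against 37.6, in CB4856 worms 4.05 against 14.8, and in maternal-strain worms 3.67 against 16.7. In the single sperm libraries the median was 5.12 RPKM at low purity, 2.95 at high purity and 5.78 in fog-2 sperm, against 26.5, 20.2 and 25.6. In poly(A) embryos 816 of the loci (69.8%) reached 1 RPKM. The libraries carry no strand, so a message and its antisense partner count together. In whole worms, fewer cells of a type and less RNA per cell cannot be told apart.

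Ordered by their oocyte antisense level, the top one of 4 equal groups (129 to 4875 RPM) had the lowest mRNA. Its median was 2.65 RPKM in poly(A) embryos, and the groups below it, from the lowest, had 7.42, 10 and 17.7. In maternal-strain worms the medians were 3.25, 4.63, 6.71 and 1.54 RPKM in the same order. The relation was therefore not a steady one. Over the 1169 loci, Spearman's rho was -0.08 between oocyte antisense level and poly(A) embryo mRNA and 0.34 between the antisense level and mRNA of maternal-strain worms. These are descriptions across loci of the same libraries and not across independent samples.

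Differences in mRNA between groups were tested with limma on log2(RPKM + 1) over all 11394 genes that passed a filter on low values, with Benjamini-Hochberg adjustment, 2 samples a group and a minimum 2-fold change. Of the 1174 loci, 908 passed the filter and 266 were not tested, so the counts below describe the 908. Nothing in the labels says whether replicates came from separate cultures, so the p-values measure the spread between these samples, which may be technical.

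In CB4856 worms against maternal-strain worms, 30 of the 908 loci (3.3%) were higher and 18 (1.98%) lower. Of all genes tested, 13.5% were higher and 1.67% lower. Of the other 4578 loci tested at the same oocyte antisense level, 2.73% were higher and 1.09% lower, so the low share of higher calls was common to both. This split depended on scaling. With median centring 20 were higher and 30 lower, and with quantile normalization 23 and 66, where the median of all genes moved from 0.04 to -0.2 and -0.19. With a pseudocount of 5 the counts were 10 and 5, and with 0.1 the lower calls were 31. Leaving out either CB4856 sample gave 19 higher.

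ins-31, an insulin-like gene, stood at 43.83 ± 1.014 RPKM (SD, n = 2) in CB4856 worms against 0.0104 ± 0.0147 in the maternal strain, a log2 difference of 5.47 ± 0.5 (SE; limma adjusted p = 0.000303). The single libraries read 43.41, 42.82 and 44.54 RPKM in CB4856 worms and 0, 0 and 0.0208 in the maternal strain, with no overlap. In the 3 sperm libraries ins-31 stood at 355, 481.6 and 529.8 RPKM, above either kind of worm. clec-157, a C-type lectin, was at 24.87 ± 0.486 RPKM against 0.0899 ± 0.0179 (log2 4.57 ± 0.07, limma adjusted p = 1.77e-07), and at 157.9 to 249.2 RPKM in sperm. Y46D2A.3 was at 22.74 against 0.073 RPKM (log2 4.47). noah-2, a zona pellucida domain protein of the apical matrix, was at 45.46 ± 1.658 against 6.866 ± 0.0677 RPKM (log2 2.56) but at 0.387 to 3.017 RPKM in sperm. F40G9.6 was at 7.066 against 0.455 RPKM (log2 2.47). The largest limma adjusted p among the 5 largest rises and 5 largest falls was 0.00369.

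Of the 30 higher loci, 27, 27 and 21 reached 1 RPKM in the low purity, high purity and fog-2 sperm libraries. Of all 1169 loci in the mRNA table, which include loci that did not pass the filter, 72.5, 69.8 and 72.6% did. Of the other loci at the same oocyte antisense level, 94.6, 93.6 and 95.8% did, so reaching 1 RPKM in sperm was not particular to the 30. The major sperm protein list summed to 3754 to 3786 RPKM in the CB4856 worms and 30.9 to 36.5 in the maternal-strain worms. A list of 14 other sperm genes summed to 1403 to 1429 and 9.88 to 11.8 RPKM. Sperm messages thus moved with the same comparison, and their part in these calls was not tested.

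C50E3.13 fell by 3.00 on the log2 scale, from 17.79 ± 0.0292 RPKM in maternal-strain worms to 1.367 ± 0.411 in CB4856 worms (n = 2, limma adjusted p = 3.34e-05). F54E4.2, with its high antisense level in oocytes, fell by 2.98 on the log2 scale. It was at 9.732 ± 0.495 RPKM in maternal-strain worms, 0.356 ± 0.0612 in CB4856 worms and 0.0572 ± 0.0694 in poly(A) embryos. It thus had mRNA in the maternal-strain worms, where its antisense reads were 0, and little in the embryos, where the hybrid library had 982.9 RPM antisense. rgs-9 fell by 1.67, from 30.29 to 8.842 RPKM. Y102A5C.2, bath-5 and E01G4.5 fell from 4.878, 3.808 and 3.754 RPKM to 0, 0 and 0.0073, calls that were lost with a pseudocount of 5. E01G4.5, with 11.8 RPM antisense in CB4856 worms, thus also had almost no mRNA there. C40A11.10 had little mRNA in either strain, at 0 in CB4856 and 0.0659 RPKM in maternal-strain worms, too low for the test. Y102A5C.2, bath-5 and E01G4.5 were at 0.0803, 0.0694 and 0.0753 RPKM in low purity CB4856 sperm. In high purity CB4856 sperm they were at 0.168, 0.0393 and 0.104 RPKM, and in fog-2 sperm at 6.887, 11.4 and 40.71. Whether CB4856 reads map as well to these loci as those of the other strains was not tested. F49F1.5, picked out after its values were seen, went the other way from its antisense level, with 2.357 ± 0.105 RPKM in CB4856 worms against 0.0888 ± 0.0627 in the maternal strain (log2 1.63, limma adjusted p = 3.92e-05).

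**Figure D5:**
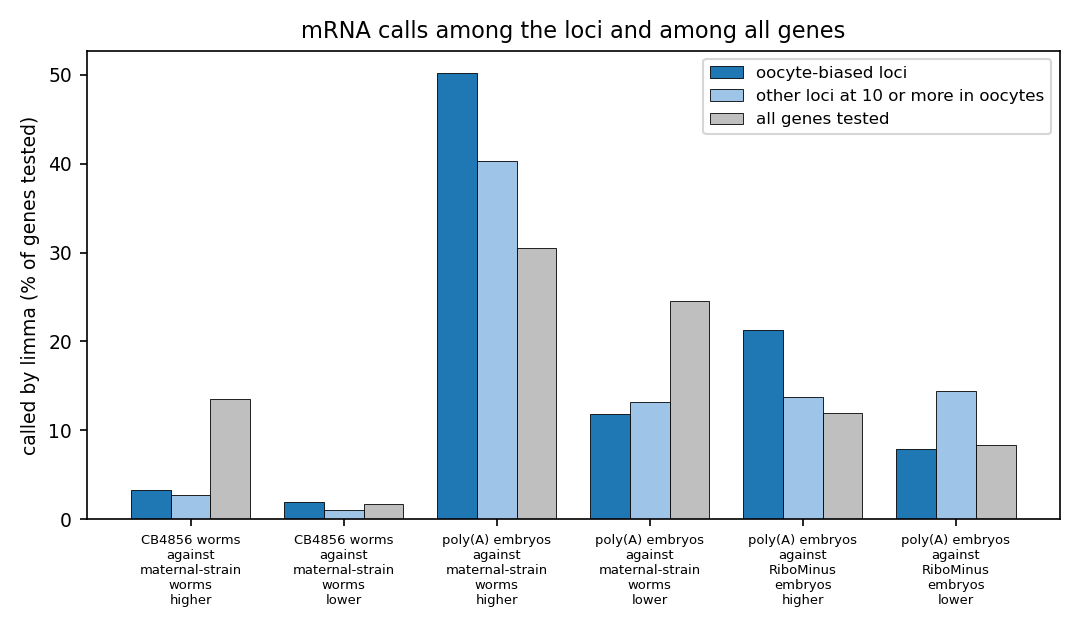
Percent of tested loci or genes called higher or lower in each mRNA comparison, for the 908 tested members, the 4578 other tested loci at the same oocyte antisense level and all 11394 tested genes. For poly(A) embryos against maternal-strain worms, 50.2% of members, 40.3% of the other loci and 30.5% of all genes were higher.

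In poly(A) embryos against maternal-strain worms, 456 of the 908 loci (50.2%) were higher and 107 (11.8%) lower, against 30.5% and 24.5% of all genes. The other small RNA loci had 40.3% higher and 13.2% lower, as the bar plot of calls shows. The median log2 difference was 1.1 for the members, 0.65 for the other loci and 0.03 for all genes. With a pseudocount of 5 the lower calls were 54. Intestine genes summed to 17243 to 17345 RPKM in the maternal-strain worms and 6.01 to 8.18 in poly(A) embryos, muscle genes to 3225 to 3246 and 45.7 to 52.2, and cuticle genes to 10365 to 10494 and 8.55 to 10.1. Somatic messages thus moved with the comparison, and their part in the counts was not tested.

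Y48G1A.2 read 453.6, 450.3 and 854.2 RPKM in the poly(A) embryo libraries and 14.03, 13.52 and 12.52 in maternal-strain worms, again with no overlap. Its mean was 653.1 ± 284.4 RPKM (SD, n = 2) in poly(A) embryos and 13.15 ± 0.887 in maternal-strain worms, a log2 difference of 5.46 ± 0.68 (SE; limma adjusted p = 0.000618). F12E12.1 was at 220.9 ± 155.4 against 5.415 ± 0.204 RPKM (log2 4.91), and blos-8, named for a subunit of the lysosome-related organelle complex BLOC-1, at 91.8 ± 18.79 against 2.28 ± 0.0253 (log2 4.81). Y39B6A.13 and F31E8.4 rose by 4.68 and 4.57 on the log2 scale. The wide spread of the embryo values lies between the averaged first pair of libraries and replicate 3. Among loci with a large sperm deficit of antisense RNA, rgs-9 was at 271.3 ± 84.1 against 30.29 ± 0.374 RPKM (log2 3.09) and athp-3 at 26.7 ± 4.508 against 1.224 ± 0.118 (log2 3.63). bath-5 was at 89.82 ± 12.41 against 3.808 ± 0.011 RPKM (log2 4.23). ekl-5 did not pass, at 41.64 ± 31.48 against 26.42 ± 0.664 RPKM (limma adjusted p = 0.522). F54E4.2, also with a large sperm deficit of antisense RNA, was lower, at 0.0572 ± 0.0694 against 9.732 ± 0.495 RPKM (log2 -3.34, limma adjusted p = 1.56e-06).

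R13H4.2 read 0.586, 0.849 and 0.852 RPKM in the poly(A) embryo libraries and 165.4, 168.7 and 173.7 in maternal-strain worms. It had the largest fall, from 170.4 ± 4.703 RPKM in maternal-strain worms to 0.784 ± 0.0948 in poly(A) embryos (log2 -6.59 ± 0.16, n = 2, limma adjusted p = 1.56e-06). lev-11, the muscle tropomyosin gene, fell from 151 ± 0.138 to 2.523 ± 1.884 RPKM (log2 -5.54), and aldo-1, an aldolase of glycolysis, from 151.4 ± 2.932 to 5.615 ± 2.49 (log2 -4.58). Y7A5A.1 and F55A12.1 fell by 4.15 and 4.05 on the log2 scale. rme-2 fell from 705 ± 9.686 to 202.7 ± 94.09 RPKM (log2 -1.87, limma adjusted p = 0.00258). nlp-40 fell from 40.34 to 4.589 RPKM and scav-4 from 9.456 to 0.076.

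In poly(A) against RiboMinus libraries of the hybrid embryos, 193 of the 908 loci (21.3%) were higher and 72 (7.93%) lower, against 11.9% and 8.37% of all genes. Of the other loci at the same oocyte antisense level, 13.7% were higher and 14.4% lower. These calls needed the spread of all 4 groups. With only the 2 embryo groups in the limma fit, 0 were higher and 0 lower, and 226 had an unadjusted p under 0.05. Without the averaged first RiboMinus pair 127 were higher, and without poly(A) replicate 3 130 were lower. The RiboMinus libraries were shallow, at 4.3 to 13.28 M reads against 99.75 to 129.74 M.

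The histone gene his-61 read 24.73, 23.47 and 52.71 RPKM with poly(A) selection and 858, 874.4 and 3389 with RiboMinus. It was at 38.41 ± 20.23 RPKM with poly(A) selection and 2128 ± 1784 with RiboMinus (log2 -5.55, n = 2, largest limma adjusted p of the 10 named here 0.0384), and his-31 at 2.665 ± 0.726 against 49.33 ± 12.19 (log2 -3.77). Replication-dependent histone messages are known to lack a poly(A) tail. gap-3, a GTPase-activating protein for Ras, was at 2.371 ± 1.583 against 41.35 ± 3.025 RPKM (log2 -3.73), and egrh-3, a zinc finger gene, at 15.73 ± 9.082 against 133 ± 26.32 (log2 -3.1). zipt-15, a zinc transporter, was at 8.267 ± 9.646 against 54.48 ± 18.18 RPKM (log2 -3.1), a call lost without either RiboMinus sample. Y25C1A.8 was higher with poly(A) selection, at 93.01 ± 30.45 against 6.361 ± 7.024 RPKM (log2 4.07), as were Y82E9BR.22, C26B2.7, C53H9.3 and F53E10.6, by 3.92, 3.89, 3.69 and 3.67 on the log2 scale.

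Among pathway genes as a whole, 8 of 13 mutator and amplification genes were higher in poly(A) embryos than in maternal-strain worms and 1 was lower. With quantile normalization 3 were higher and 2 lower. mut-2, a nucleotidyltransferase, was at 164.5 ± 15.04 against 36.6 ± 2.773 RPKM (log2 2.14, n = 2, limma adjusted p = 6.81e-05). Of the 5 members in the pathway, mut-14 (log2 1.28), nyn-2 (1.41) and smut-1 (1.25) were higher. All 3 calls were lost with quantile normalization, and each was lost when at least 1 of the samples compared was left out. Of 5 genes that make the primary class, 4 were higher (3 higher and 1 lower with quantile normalization), among them rde-4, a double-stranded RNA-binding protein, at 128.2 ± 35.77 against 16.65 ± 0.266 RPKM (log2 2.84, limma adjusted p = 0.000151). With RiboMinus rde-4 was at 27.8 ± 6.17 RPKM. Of 16 Argonautes, 1 was higher and 4 were lower (0 and 6 with quantile normalization), including csr-1, at 20.34 ± 8.105 against 132.4 ± 1.833 RPKM (log2 -2.7, limma adjusted p = 0.000259). All 4, csr-1, hrde-1, ppw-1 and ppw-2, were also lower with poly(A) selection than with RiboMinus. With RiboMinus, hrde-1 and ppw-1 were at 765.7 and 21.7 RPKM, above the 531.2 and 14.22 of maternal-strain worms. There csr-1 and ppw-2 were at 61.25 and 22.49 RPKM, below the 132.4 and 42.21 of the worms. ergo-1 and nrde-3 did not pass in poly(A) embryos against maternal-strain worms, with log2 differences of -0.66 and 0.28. Both were lower with poly(A) selection than with RiboMinus, with log2 differences of -1.57 and -1.91. In CB4856 worms against maternal-strain worms 3 Argonautes were higher (2 with quantile normalization), alg-3, alg-4 and wago-10, of which alg-3 and alg-4 are known from sperm development. alg-3 was at 27.03 ± 0.524 against 0.182 ± 0.0038 RPKM (log2 4.57, limma adjusted p = 1.77e-07). ppw-1 was lower, at 4.302 ± 0.288 against 14.22 ± 0.434 RPKM (log2 -1.52, limma adjusted p = 0.0219).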

How the data were processed

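Small RNA was read from the deposited table of reads over exons, in the sense and antisense direction, with the introns of the same genes beside it. Its values, as deposited, are a signal in reads per locus, of which 89.8 to 92.5% are whole within 1e-06 and the rest hold fractions. Reads were mapped with BWA, per the submitters' processing notes. The genome build is not given in the sources used here, and RefSeq WBcel235 served for names and gene order only. Of the columns, 8 per small RNA file match no labelled sample and were not used. The oocyte column and both worm columns carry no number. They were taken as replicate 1 by inference, for worms because the columns beside them are numbered 2 and 3, and each oocyte and worm small RNA value rests on that match. Messenger RNA was deposited as RPKM by the authors, and the labels' protocols describe random-hexamer cDNA.

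Antisense levels were scaled to reads per 1000000 antisense exon reads (RPM). Messenger RNA was tested with limma 3.58.1 in R 4.3.3 (trend) on log2(RPKM + 1), in 1 fit of the 4 replicated groups, two-sided, for genes with RPKM of at least 1 in 3 of 12 libraries. A call needed an adjusted p under 0.05 and a log2 difference of at least 1. RPKM understates changes of low genes on this scale. The procedure was tested on simulated data. The members and lists were chosen with earlier results of these data known. Named loci were the 12 highest in oocytes, the 8 with the largest ratio to sperm, the 5 highest and 5 lowest in hybrid embryos against oocytes, up to 5 on each side of both thresholds, the 5 largest rises and falls called in each mRNA comparison, and the listed genes. Alternatives covered the selection, scaling, pseudocount, filter, the groups in the fit, the replicate block and each of the 2 samples of a group left out.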

Additional observations from a re-analysis of the deposited data

How the results depend on the processing

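The number of loci was 2004 at 4-fold over sperm, 588 at 16-fold and 459 at an oocyte level of 50. With repeated loci counted once, a choice made after seeing the data, it was 1487. Scaled to all reads of the class tables, the medians of the loci were 20.46 RPM in hybrid embryos, 15.14 in TX189 embryos, 4.006 in maternal-strain worms and 2.688 in CB4856 worms. With repeated loci as listed, also chosen after seeing the data, the TX189 median was 14.8.

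For CB4856 against maternal-strain worms, a pseudocount of 5 gave 10 loci higher and 5 lower, and 0.1 gave 31 lower. Lower calls were 66 with quantile normalization and 30 with median centring. Leaving out 1 replicate gave 19 to 21 higher and 13 to 16 lower. For poly(A) embryos against maternal-strain worms, a pseudocount of 5 gave 54 lower, and leaving out 1 replicate 396 to 474 higher and 97 to 127 lower. For poly(A) against RiboMinus embryos, 0 and 0 were called with only the 2 groups in the fit. Leaving out 1 replicate gave 127 to 238 higher and 51 to 130 lower. The cause was not tested. Here and below, 1 replicate left out means either replicate 3 or the averaged replicates 1 and 2 together. Where 1 sample of a group is left, it is assumed to vary like the other groups.

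With the replicate number as a block, the 3 comparisons gave 30 higher and 20 lower, 458 and 107, and 196 and 71. Same-numbered samples shared deviations with correlations of 0.711, 0.09 and 0.255 over 11394 genes, with 2 pairs each, and the labels give no pairing. Of 692 values of the named genes under alternatives, 686, 618 and 636 stayed on their side of the threshold in the 3 comparisons. Among these, 21, 20 and 28 not called under either setting changed sign. For poly(A) embryos against maternal-strain worms, zipt-15 went from an uncalled -0.19 to a called 1.16 without the averaged poly(A) pair, with a range of -1.55 to 1.16 when 1 replicate was left out. Depth limits the worm small RNA libraries most, where 324 and 446 loci lay under the floor.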
